A study of Rattus norvegicus with 20 samples.

Results

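The amino acid transporters of rat liver were taken as every gene whose symbol in the platform annotation begins with Slc1a, Slc3a, Slc6a, Slc7a, Slc36a, Slc38a or Slc43a followed by a number. The annotation gave 50 such genes, and 49 of them had values, out of 13462 genes measured. Slc7a9 was listed without values. Where a gene had several probe sets, the one of highest mean signal was used. All 50 symbols matched the current RefSeq symbol of their gene identifier. The symbol rule also takes in Slc6a2, Slc6a3 and Slc6a4, which carry monoamines and not amino acids.

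Liver RNA came from 20 male Sprague-Dawley rats that arrived at 4 weeks of age, spent 5 days on a commercial diet and then ate a test diet for 21 days, with 5 rats of average food intake arrayed per diet. Control rats ate casein, at 200 g per kg of diet. The cultivar Fukuyutaka and casein supplied equal parts of the protein of the conventional soybean diet. In the high-isoflavone diets the cultivar Yukipirika was used, at 3 parts casein to 1 part soybean (3:1) or at equal parts (1:1). Casein was thus present in all 4 diets. The study asked how soybean in the diet, and the isoflavones it holds, affect liver messenger RNAs. Every array is a separate rat, and every comparison against casein uses the same 5 casein rats, so those comparisons are not independent of each other.

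The Slc families sort amino acids by charge and by the ion that drives them. Slc1 members take up acidic or small neutral amino acids, Slc6 members couple uptake to sodium and chloride, Slc7 members carry cationic amino acids or exchange neutral ones beside an Slc3 heavy chain, and Slc38 members move glutamine, alanine and other neutral amino acids with sodium. Hepatocytes use them to draw amino acids from portal blood for urea, glucose, glutathione and protein synthesis, and several of these genes respond to amino acid supply.

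Values below are log2 signals, a difference of 1 being a factor of 2 (2-fold), and errors are SD over 5 rats or the standard error (SE) of a difference from the limma fit. A gene was called, and is said to have risen or fallen, at a Benjamini-Hochberg adjusted p under 0.05 over all 27702 probe sets tested. The signals of different probe sets cannot be set against each other as amounts. The defining hepatocyte marker Alb was high on every diet (10.07 ± 0.134 on casein), and the mean of the 6 hepatocyte markers was 8.83 ± 0.0638 on casein, 8.57 ± 0.170 on conventional soybean, 8.80 ± 0.0854 on 3:1 and 8.62 ± 0.0870 on 1:1. On each soybean diet 3 of these markers lay above casein and 3 below, with medians of -0.03, 0.01 and 0.03. Of the 6, Tat, which breaks down tyrosine, fell by 1.20 on conventional soybean (adjusted p = 0.0487) and by 1.25 on 1:1 (adjusted p = 0.0331). The median signal of the casein arrays (2.43 to 2.49) did not overlap with that of the conventional soybean arrays (2.51 to 2.56), while 3:1 (2.43 to 2.52) and 1:1 (2.45 to 2.57) overlapped casein. The arrays of casein rat 5 and of 3:1 rat 1 had a higher lowest signal than the others (at least 0.447 against at most -0.879). The part of these differences in the results was not tested.

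Of the 49 transporters 1 rose on each high-isoflavone diet, and it was Slc6a13 both times. No transporter was called on conventional soybean, where 1.86% of all genes were called. The 1 gene called on the 3:1 diet is 2.04% of the transporters, against 0.0594% of all genes (0.0297% called higher), and the 1 gene called on the 1:1 diet is again 2.04%, against 2.53% of all genes (1.33% called higher). For the mean of the 3 soybean diets against casein, Slc6a13 was also the 1 transporter called, against 2.5% of all genes (1.53% called higher). At an unadjusted p under 0.05 limma gave 7 transporters on conventional soybean, or 14.3% against 17.2% of all genes. The same count was 4 on the 3:1 diet (8.16% against 8.51%), 6 on the 1:1 diet (12.2% against 17.5%) and 10 for the mean of the soybean diets (20.4% against 17.1%). The share of transporters at that level was therefore near that of all genes or below it in each diet comparison with casein.

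The transporters as a group showed no common direction. On conventional soybean 27 lay above casein and 22 below, with a median difference of 0.02 against 0.04 over all genes. On the 3:1 diet 22 lay above and 27 below, with a median of -0.02 against 0.01, and on the 1:1 diet 26 lay above and 23 below, with a median of 0.02 against 0.03. The median size of the difference, whatever its sign, was 0.19, 0.14 and 0.14 in the same order, against 0.14, 0.11 and 0.14 over all genes. The median 95% interval of a transporter reached 0.33 to either side of its difference. That interval lay within 1 log2 unit of no difference for 46, 47 and 47 of the 49 genes, and within 0.5 for 26, 28 and 23 of them.

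**Figure D1:**
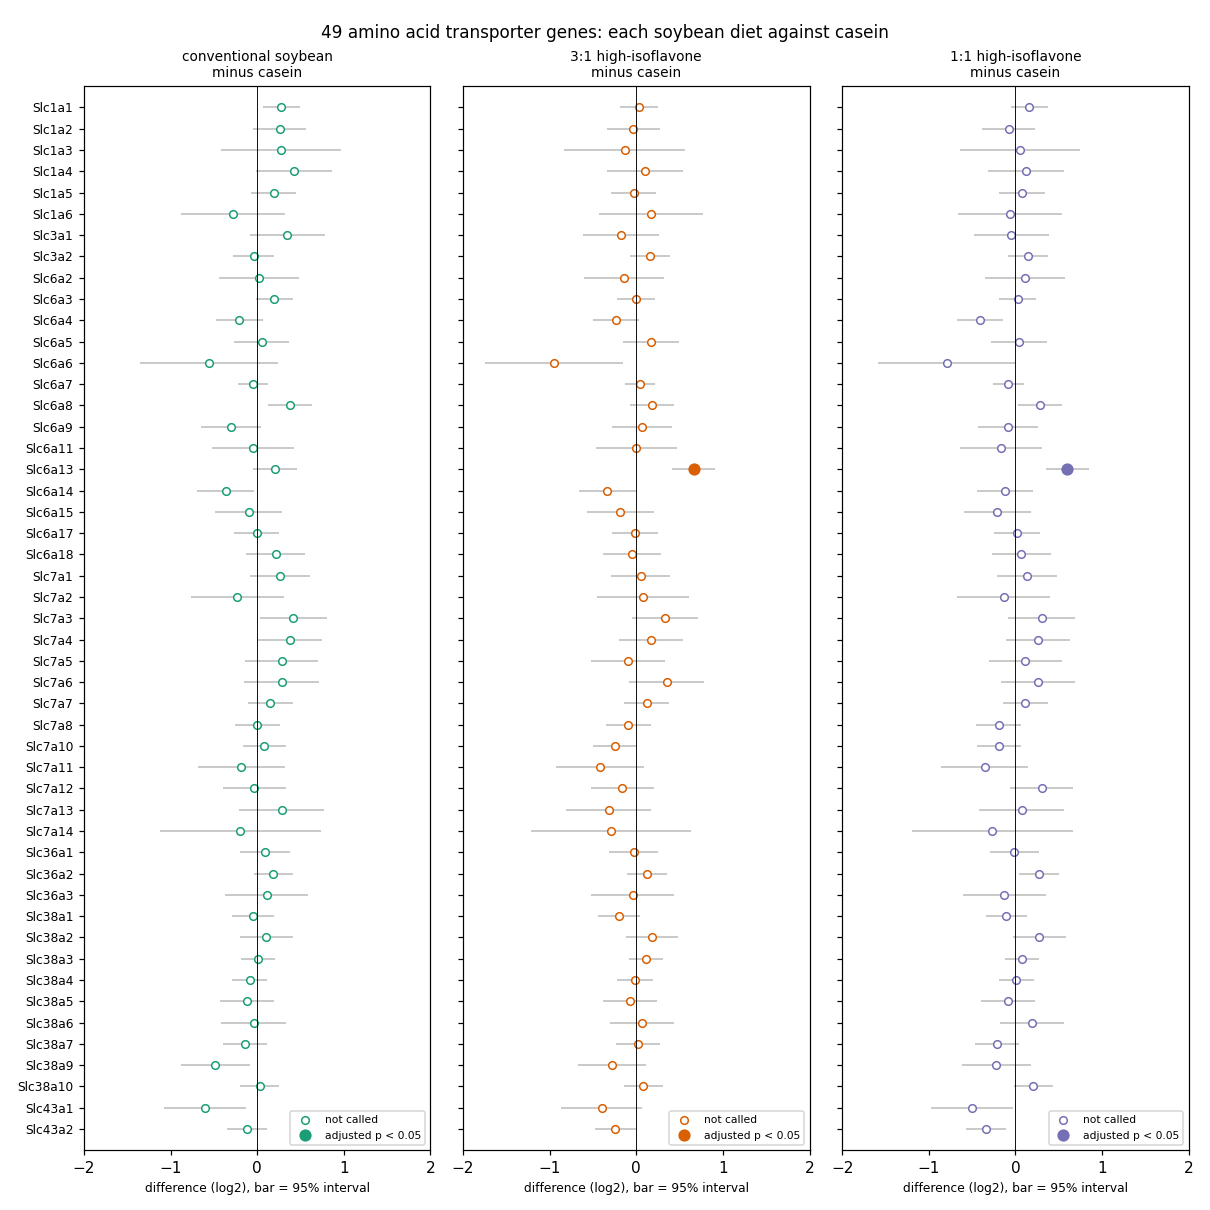
Difference of each soybean diet from casein (x axis, log2) for the 49 transporter genes (y axis, by family), with 95% intervals from the limma fit; filled points are called at an adjusted p under 0.05. The 1 filled point stands at Slc6a13 in the 3:1 and 1:1 panels, at 0.66 and 0.60, and the conventional panel has none.

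Among the carriers of GABA, betaine, taurine and creatine in the Slc6 family, 4 of 6 listed genes were measured, and Slc6a13 rose on both high-isoflavone diets. Slc6a13 encodes GAT2, which takes up GABA and taurine and is known in hepatocytes around the portal vein. Its level was 4.16, 4.17, 4.02, 4.10 and 4.15 in the casein rats and 4.73, 4.72, 4.79, 4.80 and 4.88 in the 3:1 rats. On the 1:1 diet it was 4.82, 5.00, 4.67, 4.90 and 4.22, and on conventional soybean 4.25, 4.35, 4.34, 4.05 and 4.65. Every rat on a high-isoflavone diet was above every casein rat, although 1:1 rat 5 was only just above, and the conventional rats overlapped with casein.

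The mean of Slc6a13 was 4.12 ± 0.0634 on casein, 4.33 ± 0.214 on conventional soybean, 4.78 ± 0.0616 on 3:1 and 4.72 ± 0.303 on 1:1. It was 1.58-fold higher on 3:1 than on casein (log2 difference 0.66, SE 0.123, 95% interval 0.41 to 0.91, adjusted p = 0.0491). On the 1:1 diet it was 1.52-fold higher (0.60, interval 0.35 to 0.85, adjusted p = 0.0102). Conventional soybean differed by 0.21 (interval -0.04 to 0.45, adjusted p = 0.396). The mean of the soybean diets lay 0.49 above casein (SE 0.0979, adjusted p = 0.00979).

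**Figure D2:**
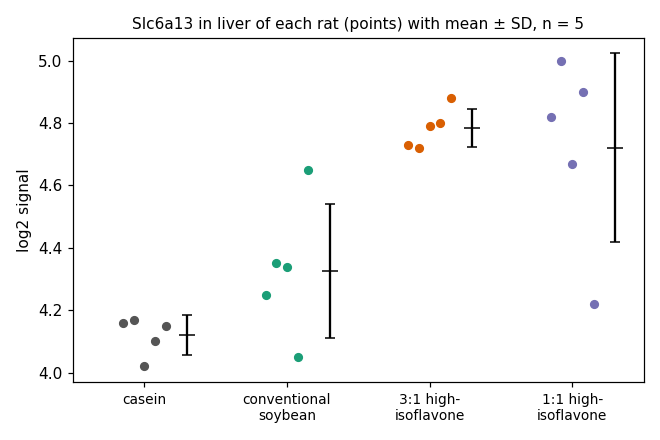
Log2 signal of Slc6a13 (y axis) in each rat (points) on the 4 diets (x axis), with the mean and SD of 5 rats. The 3:1 rats lie between 4.72 and 4.88, above the casein rats at 4.02 to 4.17, and the 1:1 group has 1 low rat at 4.22.

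The soybean diets were also set against each other for Slc6a13. At equal parts of protein, the high-isoflavone cultivar stood 0.39 above the conventional one (interval 0.14 to 0.64, unadjusted p = 0.00349), but the adjusted p was 0.403 in the limma fit over all probe sets. It was 0.0475, with a difference of 0.52, when 1:1 rat 5 was left out. On the array of that rat the signal of beta-actin at the 3′ end exceeded that at the 5′ end, a mark of RNA integrity, by 2.10 on the log2 scale, against 1.07 to 1.43 in the other 1:1 rats. The casein rats had 1.29 to 1.53, the conventional rats 1.32 to 1.83 and the 3:1 rats 1.35 to 2.13, the highest being rat 1. The same measure for GAPDH did not set these 2 arrays apart. It was 0.832 in 1:1 rat 5, against 0.809 to 0.914 in the other 1:1 rats. In 3:1 rat 1 it was 0.937, against 0.856 to 1.004 in the other 3:1 rats. The part of RNA integrity in the Slc6a13 values was not tested. The 1:1 and 3:1 diets differed by -0.06 (interval -0.31 to 0.19, adjusted p = 0.934), an interval that holds differences of up to 0.31 in size between these shares of soybean.

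The call on the 1:1 diet was kept in all 20 omissions of a single rat (difference 0.53 to 0.72, adjusted p up to 0.0381), and the call on the mean of the soybean diets likewise (0.46 to 0.53, up to 0.0382). The call on the 3:1 diet was lost in 14 of 20 omissions, with the difference still between 0.64 and 0.68. These were the omissions of casein rats 2 to 5 (adjusted p 0.0859 to 0.144), of each 3:1 rat (0.0684 to 0.113), of conventional rats 1 to 3 (0.0516 to 0.0602) and of 1:1 rats 1 and 3 (0.0521 and 0.0687). Without the 2 arrays of higher lowest signal the adjusted p on the 3:1 diet was 0.195.

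**Figure D3:**
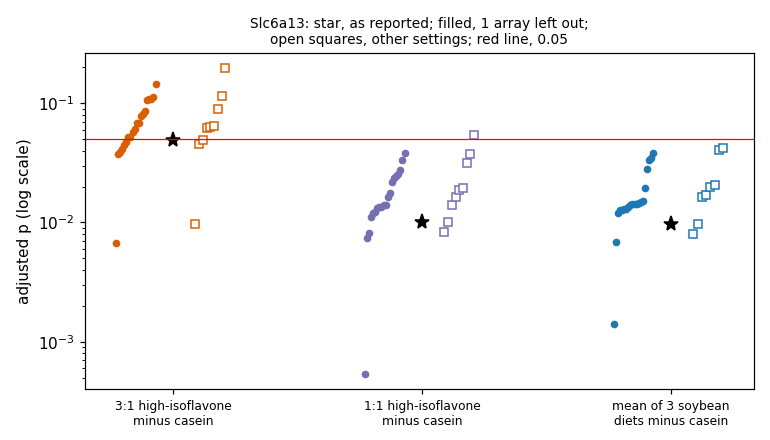
Adjusted p of Slc6a13 (y axis, log scale) in 3 comparisons with casein (x axis); the star is the value reported, filled points leave out 1 array each, open squares are other settings of the processing, and the red line is 0.05. The 3:1 values run from 0.00678 to 0.195 and cross the line, while 1 value of the 1:1 comparison (0.0545) and none of the mean of the soybean diets lies above it.

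In whole liver, fewer cells of a type and less RNA per cell cannot be told apart, and Slc6a13 is a gene of the periportal zone. The mean of the 6 periportal markers was 6.63 ± 0.318 on casein, 6.68 ± 0.279 on conventional soybean, 6.63 ± 0.135 on 3:1 and 6.70 ± 0.122 on 1:1. Of these, Hal, which breaks down histidine, rose on the 1:1 diet (0.67, adjusted p = 0.00978) and differed by 0.50 on conventional soybean (adjusted p = 0.0620) and 0.69 on 3:1 (adjusted p = 0.0616). Ass1 went the other way, by -0.38 on conventional soybean, -0.40 on 1:1 and -0.40 for the mean of the soybean diets (adjusted p = 0.0961 for the mean). Of the 6 markers, 4 lay above casein and 2 below on conventional soybean and on 1:1, and 3 above and 3 below on 3:1. The mean of the 5 measured pericentral markers, of which the transporter Slc1a2 is 1, was 6.08 ± 0.156, 5.93 ± 0.440, 5.73 ± 0.176 and 5.85 ± 0.151 in the same order of diets. Of these 5, 4 lay below casein on conventional soybean and on 1:1, and all 5 on 3:1. Their medians were -0.10 on conventional soybean, -0.38 on 3:1 and -0.11 on 1:1, and none was called. Markers of other cells also differed between diets. All 7 measured macrophage markers lay below casein on 1:1 (median -0.34, none called, 4 with an unadjusted p under 0.05 in limma), against 5 of 7 on conventional soybean and 6 of 7 on 3:1, and their mean was 4.60 ± 0.133 on casein, 4.55 ± 0.322 on conventional soybean, 4.55 ± 0.0597 on 3:1 and 4.30 ± 0.131 on 1:1. Of 5 measured bile duct markers, Epcam fell by 0.71 on conventional soybean (adjusted p = 0.0257) and by 0.95 on 1:1 (adjusted p = 0.00251). It differed by -0.63 on 3:1 (adjusted p = 0.181). Krt19 differed by 1.01, 1.01 and 0.88 on the conventional, 3:1 and 1:1 diets (adjusted p = 0.0868, 0.284 and 0.127). For the mean of the soybean diets Krt19 rose by 0.97 (adjusted p = 0.0391) and Epcam fell by 0.76 (adjusted p = 0.00319). The mean of the bile duct markers was 2.10 ± 0.236, 2.22 ± 0.195, 2.19 ± 0.0826 and 2.17 ± 0.0896 on the casein, conventional, 3:1 and 1:1 diets. Of 3 measured neutrophil markers, Camp rose by 0.99 on conventional soybean (adjusted p = 0.0492) and differed by 0.55 on 3:1 and 0.85 on 1:1. The other 2, S100a8 and S100a9, lay below casein on each soybean diet, S100a9 by -0.19, -0.12 and -0.63. The mean of all 3 was 1.86 ± 0.326, 2.13 ± 0.226, 1.99 ± 0.203 and 1.85 ± 0.205 on the casein, conventional, 3:1 and 1:1 diets. No endothelial, stellate, lymphocyte or pancreas marker was called against casein. The part of zonal or cellular composition in the Slc6a13 result was not tested.

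Slc6a6 encodes the sodium-coupled taurine transporter TauT, which supplies hepatocytes with the taurine used to conjugate bile acids. Its first probe set read 5.13, 4.80, 4.78, 4.84 and 4.90 in the casein rats and 3.31, 4.97, 4.28, 4.79 and 4.31 in the conventional rats. It read 3.23, 4.49, 2.90, 4.64 and 4.47 on the 3:1 diet and 3.19, 5.06, 4.95, 3.25 and 4.07 on the 1:1 diet. In this probe set the casein rats were tightly grouped, whereas 11 of the 15 soybean rats lay below every casein rat. All 5 rats of the 3:1 diet were among these 11, and the other soybean rats overlapped with casein.

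The mean of Slc6a6 was 4.89 ± 0.143 on casein, 4.33 ± 0.643 on conventional soybean, 3.94 ± 0.815 on 3:1 and 4.10 ± 0.894 on 1:1. The differences from casein were -0.56, -0.95 and -0.79, and none passed the limma test (adjusted p = 0.473, 0.532 and 0.304). For the 3:1 diet the interval was -1.74 to -0.15. The second probe set gave -0.32, -0.96 and -0.95 (adjusted p = 0.750, 0.590 and 0.280). There the casein rats were spread more widely, from 2.48 to 3.74 (SD 0.510). In that probe set 3:1 rats 2, 4 and 5 (2.65, 2.58 and 2.68) overlapped with casein. In both probe sets the same 5 soybean rats were the lowest: they were at 2.90 to 3.31 in the first, with the next rat at 4.07, and at 0.62 to 1.53 in the second, with the next rat at 1.94. They were 1 rat on conventional soybean and 2 on each high-isoflavone diet. In the second probe set the next rat, 1:1 rat 5 at 1.94, also lay below every casein rat (lowest 2.48). The 5 rats were thus less clearly apart in that probe set.

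**Figure D4:**
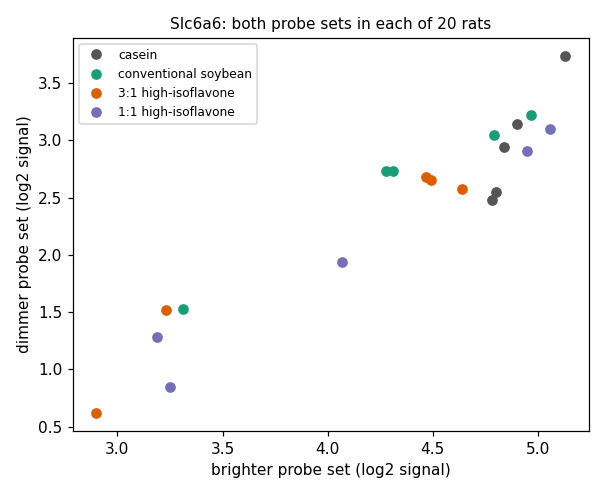
Log2 signal of Slc6a6 in the brighter probe set (x axis) and the dimmer one (y axis), 1 point per rat, coloured by diet. In each of the soybean diets 1 or 2 rats form a low group of 5 at 2.90 to 3.31 on the x axis, apart from the rest at 4.07 and above.

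Rat number 1 was in the low group on every soybean diet, whereas casein rat 1 had the highest casein value. Without number 1 of all diets the Slc6a6 differences were -0.24, -0.71 and -0.50 (adjusted p = 0.785, 0.619 and 0.556). Over all probe sets, arrays with number 1 deviated from their diet means together (mean correlation 0.275, against -0.0325 to 0.0685 for the other numbers). The labels do not say what a number stands for, and its part in the Slc6a6 values was not tested.

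The creatine transporter Slc6a8 had the smallest adjusted p of any transporter on conventional soybean, without passing the test. It read 1.76, 1.88, 2.15, 2.35 and 2.18 on casein and 2.60, 2.38, 2.23, 2.38 and 2.60 on conventional soybean. The conventional rats were mostly above the casein rats, with an overlap of 1 rat on each side. The difference was 0.38 (SE 0.123, adjusted p = 0.118), against 0.19 on 3:1 (adjusted p = 0.763) and 0.28 on 1:1 (adjusted p = 0.243). A second, dimmer probe set of Slc6a8 gave 0.22, -0.07 and 0.17 on the conventional, 3:1 and 1:1 diets. The remaining gene of this group, Slc6a11, which encodes GAT3, differed by -0.05, 0.00 and -0.16.

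The monoamine carriers gave no call. Slc6a4, the serotonin transporter, read 1.60, 1.76, 1.61, 1.69 and 1.69 on casein and 1.45, 1.32, 1.45, 1.03 and 1.07 on the 1:1 diet. These groups did not overlap, yet the difference of -0.40 had an adjusted p of 0.103, and 5.07% of all genes had groups that did not overlap in this comparison. On conventional soybean and on 3:1 it differed by -0.20 and -0.23. Slc6a4 was read by a probe set among the dimmest 25% of all probe sets.

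None of the 7 measured carriers of glycine, proline and neutral amino acids in Slc6 was called, and their median differences were -0.05, -0.02 and -0.08 on the conventional, 3:1 and 1:1 diets. The lowest of them on conventional soybean and on 3:1 was Slc6a14, a broad carrier of neutral and cationic amino acids, at -0.36 (adjusted p = 0.245) and -0.33 (adjusted p = 0.606). Slc6a9, the glycine transporter GlyT1, differed by -0.31, 0.07 and -0.08 (adjusted p = 0.362, 0.958 and 0.862). Its other probe sets gave -0.15 and 0.16 on 1:1.

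The acidic amino acid carriers of Slc1 bring glutamate and aspartate into cells. Of 5 listed, 4 were measured and none was called. Slc1a1 read 3.62, 3.49, 3.49, 3.42 and 3.40 on casein and 3.86, 3.57, 3.73, 3.90 and 3.75 on conventional soybean, an overlap of 1 rat on each side. Its difference was 0.28 on conventional soybean (adjusted p = 0.177), 0.03 on 3:1 and 0.16 on 1:1. A second, dimmer probe set of Slc1a1 gave 0.20, -0.15 and -0.02 in the same order. Slc1a2, the glutamate carrier of hepatocytes around the central vein, differed by 0.26, -0.03 and -0.08 (adjusted p = 0.385, 0.980 and 0.849). Its second probe set gave 0.06 on 1:1.

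Slc1a4 and Slc1a5 encode the exchangers ASCT1 and ASCT2 for small neutral amino acids and glutamine. Slc1a4 had the largest difference upward of any transporter on conventional soybean, at 0.42, with an interval of -0.01 to 0.86 and an adjusted p of 0.314. It differed by 0.10 and 0.12 on the high-isoflavone diets. Slc1a5 differed by 0.19, -0.03 and 0.08 (adjusted p = 0.456, 0.980 and 0.820).

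Slc3a2 encodes the heavy chain 4F2hc that brings several Slc7 light chains to the membrane. Its mean was 4.64 ± 0.204 on casein, and the differences were -0.04, 0.16 and 0.15 on the conventional, 3:1 and 1:1 diets (adjusted p = 0.877, 0.786 and 0.551). None of the 8 measured light chains was called, and their medians were 0.12, -0.13 and 0.09. Slc7a5, the exchanger LAT1 for large neutral amino acids, differed by 0.28, -0.10 and 0.11 (adjusted p = 0.498, 0.952 and 0.838). Slc7a11, the cystine and glutamate exchanger that responds to amino acid shortage and to oxidative stress, differed by -0.18, -0.42 and -0.35 (adjusted p = 0.737, 0.715 and 0.499). Slc7a10, an exchanger of small neutral amino acids, differed by 0.08, -0.25 and -0.19 (adjusted p = 0.762, 0.628 and 0.464).

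The cationic carriers of Slc7 supply arginine, lysine and ornithine, and none of the 5 was called. Slc7a1 differed by 0.26, 0.05 and 0.13 (adjusted p = 0.433, 0.969 and 0.745). Slc7a2, known as the main cationic carrier of hepatocytes, was read here by a probe set among the dimmest 25%, with differences of -0.23, 0.08 and -0.14 (adjusted p = 0.684, 0.971 and 0.849). A dim probe set can miss a difference in the messenger RNA, and 13 of the 49 transporters were read by such probe sets. Slc6a14, Slc7a5, Slc7a12 and Slc7a14 were also among these 13.

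Slc36 members move small amino acids with protons, on lysosomes (Slc36a1) or at the cell surface. Slc36a2 read 6.16, 6.31, 6.43, 6.14 and 5.87 on casein and 6.30, 6.50, 6.52, 6.44 and 6.53 on the 1:1 diet. The 1:1 rats were mostly above casein, with overlap, and the difference of 0.27 had an adjusted p of 0.200. Slc36a2 differed by 0.19 on conventional soybean and 0.13 on 3:1, and Slc36a1 differed by 0.09, -0.03 and -0.01.

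None of the 9 measured Slc38 carriers was called, and their median differences were -0.05, 0.02 and 0.01 on the conventional, 3:1 and 1:1 diets. Slc38a4, which brings alanine and other small neutral amino acids into hepatocytes, read 7.68, 7.46, 7.41, 7.63 and 7.78 on casein and 7.69, 7.73, 7.59, 7.53 and 7.46 on the 1:1 diet. The groups overlapped across nearly their whole range. The differences from casein were -0.09 (interval -0.29 to 0.11), -0.02 (-0.22 to 0.19) and 0.01 (-0.19 to 0.21) on the conventional, 3:1 and 1:1 diets. When the arrays were centred and scaled to 1 median and spread, the conventional and 1:1 differences of Slc38a4 were -0.25 and -0.16, and neither was called.

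Slc38a3, the glutamine carrier SNAT3, differed by 0.01, 0.11 and 0.08, with intervals that reached at most 0.31. Slc38a2, the inducible carrier SNAT2 whose messenger RNA rises when amino acids are scarce, had means of 3.46 on casein, 3.56 on conventional soybean, 3.64 on 3:1 and 3.73 on 1:1. Its differences of 0.10, 0.18 and 0.28 did not pass the test (adjusted p = 0.751, 0.821 and 0.358). Slc38a1 differed by -0.05, -0.20 and -0.10, and Slc38a5, a second glutamine carrier, by -0.12, -0.08 and -0.09. Another probe set of Slc38a1 gave 0.09 on conventional soybean.

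Slc38a9 encodes the lysosomal arginine sensor that signals to the growth kinase mTORC1. It read 1.55, 1.32, 1.23, 1.15 and 1.23 on casein and 0.70, 0.70, 0.55, 0.98 and 1.14 on conventional soybean. It was the 1 transporter whose casein and conventional rats did not overlap, a share of 2.04% against 4.97% of all genes. The difference was -0.48 (SE 0.190, adjusted p = 0.198), and its probe set is among the dimmest 25%. On the 3:1 and 1:1 diets, where the rats overlapped with casein, it differed by -0.28 and -0.22.

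**Figure D5:**
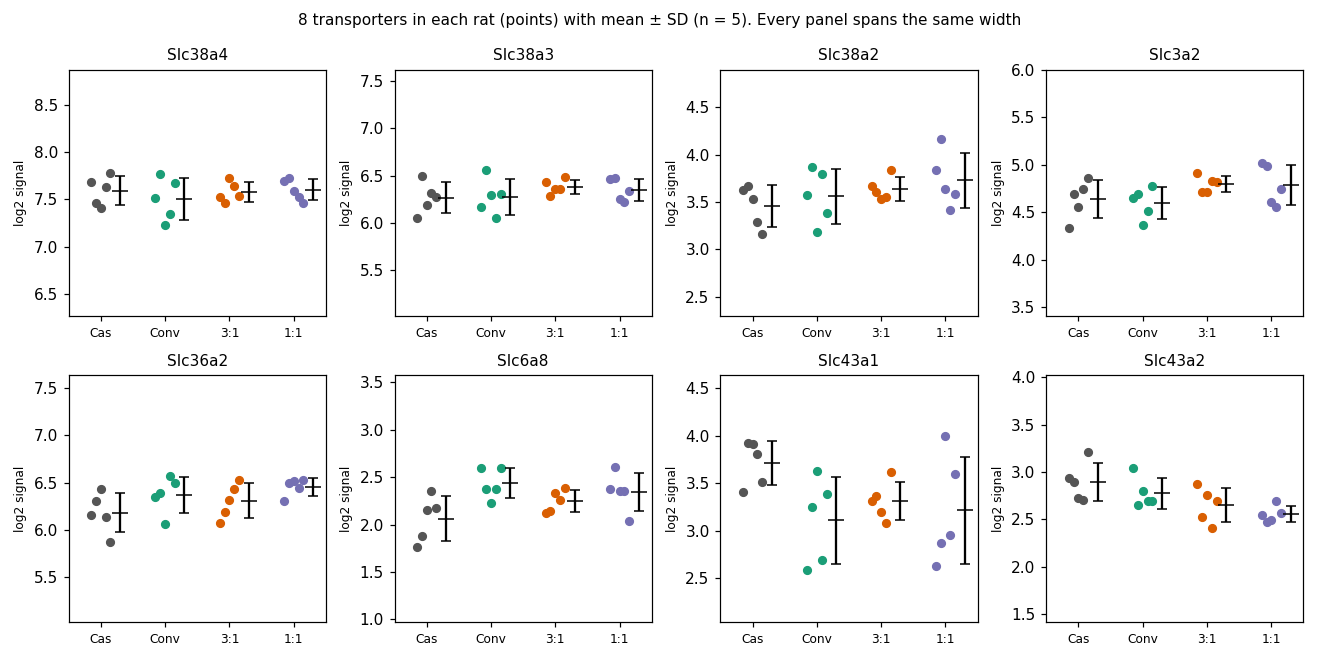
Log2 signal (y axes, each spanning the same width) of 8 transporters in each rat (points) on casein (Cas), conventional soybean (Conv), 3:1 and 1:1 diets, with the mean and SD of 5 rats. Slc38a4 overlaps on all 4 diets, while Slc43a1 reaches down to 2.58 on conventional soybean and 2.63 on 1:1 against 3.41 on casein.

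Slc43a1 and Slc43a2 encode LAT3 and LAT4, which carry branched-chain and other large neutral amino acids by facilitated diffusion, and neither was called. Slc43a1 read 3.41, 3.92, 3.91, 3.81 and 3.51 on casein and 2.58, 3.25, 3.63, 2.69 and 3.39 on conventional soybean. It read 3.31, 3.36, 3.20, 3.08 and 3.62 on 3:1 and 2.63, 2.87, 4.00, 2.95 and 3.60 on 1:1. Most soybean rats were below every casein rat, with overlap on every diet. The differences were -0.61, -0.40 and -0.50 (adjusted p = 0.177, 0.703 and 0.266), the first being the largest downward difference of any transporter on conventional soybean.

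Slc43a2 read 2.94, 2.90, 2.73, 2.70 and 3.21 on casein and 2.55, 2.47, 2.49, 2.69 and 2.57 on the 1:1 diet. Every 1:1 rat was below every casein rat, by a narrow margin. The difference was -0.34 (SE 0.112, adjusted p = 0.117), against -0.12 on conventional soybean and -0.24 on 3:1. A second, dimmer probe set of Slc43a2 went the other way on 1:1 (0.11), with 0.00 and -0.15 on the conventional and 3:1 diets. With Slc6a13 and Slc6a4, Slc43a2 made 3 transporters whose casein and 1:1 rats did not overlap (6.12% against 5.07% of all genes). On the 3:1 diet there were 2, Slc6a13 and Slc6a6 (4.08% against 2.27%). For Slc6a6 this held in its first probe set only.

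No transporter passed the test between any of the soybean diets that were compared. Between the 1:1 high-isoflavone and the conventional diet no transporter was called, against 0.104% of all genes, and 3 had an unadjusted p under 0.05 (6.12% against 7.29%). The median difference was -0.08 against -0.01 over all genes, with 18 transporters above and 31 below the conventional diet. Between the 1:1 and 3:1 diets no transporter was called in the limma fit, against 0% of all genes, and 1 had an unadjusted p under 0.05 (2.04% against 7.45%). That gene was Slc7a12, a member of the light chain family, at 0.46 (adjusted p = 0.604). In neither of these comparisons did a transporter have rats that did not overlap, against 1.45% and 1.16% of all genes.

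Other amino acid carriers outside these families gave no call either. Of 20 listed, among them the peptide carriers Slc15a1 and Slc15a2 and the mitochondrial Slc25 carriers, 18 were measured, and 0 passed the limma test in any of the 6 comparisons. At an unadjusted p under 0.05 there were 3 of 18 on conventional soybean, 0 on 3:1 and 4 on 1:1, where all genes gave 17.2%, 8.51% and 17.5%. On the 1:1 diet Slc15a1, which takes up dipeptides and tripeptides, differed by 0.46 (adjusted p = 0.0629). Slc25a44, the mitochondrial carrier of branched-chain amino acids, differed by -0.57 (adjusted p = 0.0761), and Slc25a13, the aspartate and glutamate carrier of the urea cycle, by 0.30 (adjusted p = 0.0838).

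Of the genes that sense amino acids or act with transporters, 28 of 32 listed were measured. On conventional soybean 1 fell and 24 of the 28 lay below casein, with a median of -0.12. On 3:1 none was called and 19 lay below (median -0.05), and on 1:1 2 fell and 20 lay below (median -0.12). None rose. Over all genes the medians were 0.04, 0.01 and 0.03, and 1.86%, 0.0594% and 2.53% were called in either direction. The genes that fell were Eif2ak4 and Depdc5, and their part in amino acid sensing is why they were listed. The largest differences of the list were those of Sgk1, at -1.46, -1.10 and -1.26 on the conventional, 3:1 and 1:1 diets. Sgk1 was not called (adjusted p = 0.0888 on conventional soybean and 0.136 on 1:1).

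Eif2ak4 encodes GCN2, the kinase activated by uncharged transfer RNA, which slows translation and induces ATF4. It read 3.25, 3.24, 3.25, 3.35 and 3.23 on casein and 2.52, 2.78, 2.43, 2.72 and 2.40 on conventional soybean. It read 2.91, 3.01, 2.61, 2.81 and 3.03 on 3:1 and 2.52, 2.29, 2.73, 2.62 and 3.09 on 1:1. Every soybean rat lay below every casein rat on all 3 soybean diets. Of all genes, 4.97%, 2.27% and 5.07% had groups that did not overlap in the conventional, 3:1 and 1:1 comparisons with casein, in either direction. Eif2ak4 fell by 0.70 on conventional soybean (SE 0.124, adjusted p = 0.00722) and by 0.61 on 1:1 (adjusted p = 0.0109). On 3:1 the difference was -0.39 (adjusted p = 0.341). Without number 1 of all diets the adjusted p on 1:1 was 0.0636. Atf4 was not called. Its means were 5.75 ± 0.291, 5.63 ± 0.141, 5.64 ± 0.209 and 5.60 ± 0.239 on the casein, conventional, 3:1 and 1:1 diets.

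Depdc5 encodes a subunit of GATOR1, which restrains mTORC1 when amino acids are low. It read 2.63, 2.72, 3.03, 2.51 and 3.15 on casein and 2.21, 2.23, 2.26, 2.31 and 2.33 on the 1:1 diet. These groups did not overlap, which held for 5.07% of all genes in this comparison. Depdc5 fell by 0.54 on 1:1 (SE 0.141, adjusted p = 0.0463) and differed by -0.41 on conventional soybean (adjusted p = 0.135) and -0.49 on 3:1 (adjusted p = 0.260). The 1:1 call was lost in 13 of 20 omissions of a single rat, with adjusted p of 0.0719 to 0.129 for casein rats 2, 3 and 5 and 0.0549 to 0.106 for each 1:1 rat. The other omissions that ended it were conventional rats 2 and 3 (0.0571 and 0.0524) and 3:1 rats 1, 2 and 5 (0.0518, 0.0527 and 0.0504). In the mean of the soybean diets Depdc5 fell by 0.48 (adjusted p = 0.0303), which was lost without casein rat 2, 3 or 5 (0.0607, 0.0892 and 0.131). Without the 2 arrays of higher lowest signal the adjusted p of Depdc5 was 0.138 on 1:1 and 0.155 for the mean of the soybean diets. The listed genes of other GATOR1 subunits did not fall with it on 1:1. Nprl3 differed by 0.31 (adjusted p = 0.0824), with every 1:1 rat above every casein rat. Nprl2 had means of 3.11 on casein and 3.16 on 1:1.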

How the data were processed

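The authors deposited 1 table of 31099 probe sets for 20 arrays, normalized with the SuperNORM data service per the labels, in values taken as log10 of the signal. That base was inferred from spike-ins of known amount (slope 0.997, SD 0.0242, 20 arrays). The summarization of probes is not stated in these sources. The deposited log10 values were multiplied by 3.32 to give log2. After 57 controls and 3342 probe sets without values (2 in both) were removed, 27702 entered a limma fit (version 3.58.1, R 4.3.3) over all 20 arrays (a mean for each diet, eBayes with trend, two-sided, Benjamini-Hochberg per comparison), a script tested on simulated data. Of these, 19147 had 1 symbol, 404 several and 8151 none listed. Groups come from titles, and the titles naming 2 high-isoflavone diets were matched to 3:1 and 1:1 by wording. Transporters named were those called, the 5 with the smallest p per soybean diet against casein, and those known in liver (Slc6a12 and Slc43a3 were not measured here). Genes given outside that rule (Slc6a9, Slc6a11, Slc7a12, Sgk1, Atf4, Nprl2, Nprl3, uncalled carriers of other families) were chosen after their values were seen. Members and lists were chosen with earlier results of these data known. The number of arrays limits precision. The alternatives were other scalings, filters, fits and omitted arrays.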

Additional observations from a re-analysis of the deposited data

Results flagged for a closer look

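In 5 of the 100 groups tested (named transporters on each of the 4 diets) 1 rat stood far from the other 4 of its diet. Chance gives about 1 in 20 such groups, or 5 of 100. Slc1a5 read 2.45 in casein rat 2, against 2.73 to 2.83 in the other casein rats. Slc6a4 read 1.82 in 3:1 rat 2, against 1.32 to 1.37. Slc36a1 read 3.01 in casein rat 3, against 2.56 to 2.66, and 2.36 in conventional rat 3, against 2.90 in each other conventional rat. Slc38a5 read 2.30 in 3:1 rat 1, against 2.71 to 2.80, and that array is 1 of the 2 with a higher lowest signal.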

How the results depend on the processing

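The count of called transporters on the 3:1 diet fell from 1 to 0 with arrays centred and scaled (Slc6a13 adjusted p = 0.0619), quantile normalized (0.0632), without the trend (0.0891), with the replicate number as a block (0.0642), without the 2 higher-floor arrays (0.195) and without number 1 of all diets (0.115). The 1:1 count fell from 1 to 0 without number 1 of all diets (0.0545). Leaving out 1 array gave 0 to 1 on 3:1 (0 in 14 of 20) and 0 to 1 for 1:1 against conventional soybean (0 in 19 of 20). The median difference of the transporters was -0.0701 on conventional soybean and -0.0581 on 1:1 after centring and scaling, and 0.0981 on conventional soybean without the dimmest 25% of probe sets, and the cause was not tested. The other counts were the same under the alternatives run. The other medians moved by less than the SD between arrays (0.0724), and several crossed 0: over the single omissions they ran from -0.0419 to 0.0229 on 3:1, -0.0377 to 0.0566 on 1:1, -0.00745 to 0.0591 for 1:1 against 3:1 and -0.0162 to 0.0539 for the mean of the soybean diets. On conventional soybean the median was -0.00232 after quantile normalization and -0.00458 without number 1. The sign of these medians is thus not settled. The split of all called probe sets moved with scaling: 281 of 453 were higher on conventional soybean as reported, 158 of 630 after centring and scaling and 194 of 548 after quantile normalization. On 1:1 it was 317 of 613, 180 of 651 and 235 of 609. Replicate numbers were not taken as pairs: 12 of 30 same-numbered pairs correlated above 0.1, and 4 of 20 arrays correlated best with their own number in every other diet. The block changed no other count of transporters, and it ended the call of Depdc5 on 1:1 (adjusted p = 0.0511). Fitting only the compared arrays does not apply to the mean of the soybean diets, which uses all arrays. Dim probe sets limit what can be seen for 13 of the 49 transporters.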

Other observations

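Transporters varied between rats of 1 diet about as much as other genes. The SD within diets, pooled over the 4 diets, had a median of 0.246 over the 49 transporters and 0.218 over all genes. It ran from 0.0999 for Slc6a7, the proline carrier, to 0.792 for Slc7a14, whose signal lay between -0.06 and 2.47 over the 20 rats. It was above 0.5 for 3 genes, Slc1a3, Slc6a6 and Slc7a14. Slc1a3 encodes the glutamate carrier GLAST, and its signal lay between 0.77 and 3.03.

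For the 11 transporters with more than 1 measured probe set, the probe sets of a gene had the same sign of difference from casein in 8 genes on conventional soybean, 6 on 3:1 and 7 on 1:1. None of the additional probe sets was called in these comparisons.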
